A study of Mus musculus with 6 samples.

Results

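The stretch between Zbtb40 and Wnt4 is the intergenic DNA of mouse chromosome 4 from 136604717 to 136742107 (mm9), 137 kb long. It begins 1 base past the annotated end of Zbtb40 at 136604716 and lies 90 to 227 kb upstream of the fragment end at 136832108 that was taken as the Wnt4 viewpoint. Its members were chosen by position alone: all 361 fragment ends that the count tables list in this interval, of 369081 listed ends on chromosome 4 and 2110 at 10 to 400 kb from the viewpoint. In each of the 6 libraries the same 361 ends were listed. In the GENCODE M1 annotation the stretch held 5 genes and no coding gene, as its name implies.

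The contacts were measured by 4C-seq, in which crosslinked chromatin is cut and religated so that sequencing outward from a single fragment counts the DNA it lay close to. BC44 and HC11 are mouse mammary epithelial cell lines, each represented by 3 libraries and both grown in RPMI1640 with fetal bovine serum and insulin. HC11 cells alone were given EGF, at 10 ng/ml, so the line and this growth factor cannot be told apart. Cells of both lines were fixed with 2% formaldehyde and carried no stated genetic change. No hormone treatment was stated beyond the insulin of the medium. The first cut was made by DpnII at GATC and the second by NlaIII at CATG, and a fragment end is 1 side of a DpnII fragment. The labels do not say whether replicates came from separate cultures, so p-values measure the spread between these libraries, which may be technical. Ligated DNA carries no expression values, so the identity of the cells was not checked here.

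WNT4 is a secreted WNT ligand that mammary luminal cells make in response to progesterone, and it drives side branching of the ducts. The progesterone receptor, PGR, and the grainyhead-like factors, GRHL, bind DNA at enhancers, stretches that can act on a promoter far away along the chromosome when the chromatin folds into a loop. The series was made to ask how these factors control Wnt4 through such loops. In 4C-seq a looped site appears as a rise over the background of reads that falls with distance, and the stretch is the part of the upstream gene desert where such rises can be looked for away from both coding genes.

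Values below are read counts or RPM, which here means reads scaled to the same total of 1000000 reads at 10 to 400 kb from the viewpoint on either side. Values for a line are always listed from replicate 1 to replicate 3. In the stretch, BC44 libraries had 95290, 110815 and 137440 reads, and HC11 libraries had 135606, 11794 and 65074. The HC11 replicate 2 library was the shallowest, with 96690 reads in all against 625186 to 1755373 in the other 5. The viewpoint end itself held 40.5% and 44.3% of all reads in the replicate 1 libraries of BC44 and HC11 and 0.134% to 0.466% in the remaining 4, so replicate 1 stands apart, and the shares and ratios are also given for replicates 2 and 3 alone. Reads without molecular identifiers are not independent molecules, and intervals cover counting error only. The 95% Wilson interval of the stretch's read share was widest in HC11 replicate 2, from 25.6 to 26.4%.

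The sequences at the highest and at the called ends are shown first. The end with the highest median RPM was 196 kb upstream, and the ends that passed the contact criteria in both lines lay 194 and 110 kb upstream. The lines below give up to 300 bases of the DpnII fragments at the highest end, at both called ends 194 kb upstream and at the end with the second highest median, 115 kb upstream. They are read on the plus strand of mm9 from 5′ to 3′, and the capitals mark the DpnII site that bounds the end.
chr4:136636310-136636609: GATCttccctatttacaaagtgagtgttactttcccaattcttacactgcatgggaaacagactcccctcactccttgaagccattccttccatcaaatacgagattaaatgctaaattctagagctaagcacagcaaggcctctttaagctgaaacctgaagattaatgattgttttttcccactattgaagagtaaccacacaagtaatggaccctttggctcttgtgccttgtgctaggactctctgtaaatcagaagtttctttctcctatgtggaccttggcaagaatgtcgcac
chr4:136638242-136638541: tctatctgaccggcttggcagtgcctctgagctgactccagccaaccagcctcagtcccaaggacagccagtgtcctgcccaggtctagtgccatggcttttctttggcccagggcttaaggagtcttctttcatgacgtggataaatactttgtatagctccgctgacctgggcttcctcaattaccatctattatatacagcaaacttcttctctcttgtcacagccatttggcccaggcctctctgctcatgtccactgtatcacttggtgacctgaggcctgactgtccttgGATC
chr4:136638621-136638877: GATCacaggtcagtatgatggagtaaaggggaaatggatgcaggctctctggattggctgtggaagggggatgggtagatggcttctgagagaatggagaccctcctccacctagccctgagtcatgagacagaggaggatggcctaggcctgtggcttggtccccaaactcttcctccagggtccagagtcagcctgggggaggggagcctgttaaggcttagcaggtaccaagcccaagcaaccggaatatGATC
chr4:136717180-136717479: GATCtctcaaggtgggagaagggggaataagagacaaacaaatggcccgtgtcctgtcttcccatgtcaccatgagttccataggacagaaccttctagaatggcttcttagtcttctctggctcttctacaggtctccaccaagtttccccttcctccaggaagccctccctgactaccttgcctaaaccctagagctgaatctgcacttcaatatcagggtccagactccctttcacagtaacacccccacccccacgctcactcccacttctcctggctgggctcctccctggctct
The fragment that starts at 136636310 runs on to 1120 bases in all and the one that starts at 136717180 to 487, and the fragment that starts at 136638621 is shown whole, with a DpnII site at both ends.

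The ends called in both lines 110 kb upstream lay just before the RefSeq start of Gm13003, a long noncoding RNA gene read toward lower coordinates. RefSeq (GRCm38.p6) gives 300 bases around that start, at 136720981 in mm9, 250 before it and 50 after it, and this run matched chromosome 4 of mm9 exactly and once, on the minus strand. It is shown on the gene's own strand, and the capitals mark a match to the GRHL motif AACCNGTT, searched on both strands. The match covers bases 104 to 111 of the run and lies 147 bases before the start.
chr4:136720932-136721231: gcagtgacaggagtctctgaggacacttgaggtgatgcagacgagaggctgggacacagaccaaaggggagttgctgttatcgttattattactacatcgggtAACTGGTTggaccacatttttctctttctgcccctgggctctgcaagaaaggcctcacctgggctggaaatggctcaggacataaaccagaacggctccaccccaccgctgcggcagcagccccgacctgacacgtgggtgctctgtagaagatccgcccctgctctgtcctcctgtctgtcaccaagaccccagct
Of 32851 RefSeq promoters of this length, 2.09% held a match to this motif. The RefSeq promoter of Gm13001, which also lies in the stretch, was searched in the same way and held no match. A match is a description of the letters, and binding of GRHL was not measured in these libraries.

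At the level of the whole stretch, the Wnt4 promoter had between 22.5% and 28.5% of its reads at 10 to 400 kb there in both lines. The share was 25.3%, 27.4% and 28.5% in BC44 libraries, and 26.4%, 25.98% and 22.5% in HC11 libraries. The ranges overlapped, and the HC11 library with the lowest share was replicate 3. The means were 27.1% ± 1.65 (SD, n = 3) in BC44, while HC11 averaged 24.96% ± 2.11 (SD, n = 3). The difference of -2.12 percentage points (HC11 minus BC44) had a two-sided exact permutation p of 0.3, where the smallest p that 3 libraries against 3 allow is 0.1, and an adjusted p of 0.5 over 5 comparisons of the lines. The replicate 1 pair differed by 1.09 points and replicates 2 and 3 by -3.73 points, so the sign was not the same in both sets. The difference was -1.05 points as a share of all reads outside 2 kb, -1.06 as a share of upstream reads only and -0.279 when captured ends, listed ends with at least 1 read, replaced reads.

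Per listed end, contacts with the stretch stood between those with the DNA next to Wnt4 and those with the DNA around and past Zbtb40. From 10 kb upstream to the stretch, 238 ends had 1521 ± 65.3 RPM per end in BC44 and 1294 ± 99.9 in HC11 (SD, n = 3). In the stretch the levels were 701, 760 and 791 RPM per end in BC44 and 731, 719.6 and 624 in HC11. From the stretch to 400 kb upstream, 479 ends had 193 ± 21.5 RPM per end in BC44 and 272 ± 41.6 in HC11 (SD, n = 3). The levels therefore stepped down from zone to zone in every one of the 6 libraries.

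Distance alone lowers contact, so the stretch was set against the interval at the same distances on the other side of Wnt4, from 136922109 to 137059499, with 375 listed ends. That interval had 225.7 to 250.1 RPM per end in BC44 and 245.7 to 259.6 in HC11, against 624 to 791 in the stretch. Within each library the log2 ratio of stretch to downstream interval was 1.49, 1.71 and 1.81 for BC44 and 1.57, 1.54 and 1.27 in HC11, so the stretch was higher in 6 of 6 libraries. The mean log2 ratio was 1.56 ± 0.19 (SD, n = 6), or 2.96-fold. The two-sided exact sign-flip permutation p was 0.031, the smallest that 6 libraries allow, and 0.0625 after adjustment over 2 comparisons within libraries, which is not under 0.05. This test treats the 6 libraries as independent. With same-numbered libraries averaged into pairs its adjusted p was 0.5, where 3 pairs allow no p under 0.25. The mean ratio was 1.67 ± 0.17 in BC44 and 1.46 ± 0.17 in HC11 (SD, n = 3), and the difference of -0.21 between the lines had a two-sided exact permutation p of 0.3. With replicates 2 and 3 alone the mean log2 ratio was 1.58. Counted as captured ends it was 0.48, again above 0 in 6 of 6 libraries. Gene content differs between the sides and its part in the ratio was not tested.

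**Figure D1:**
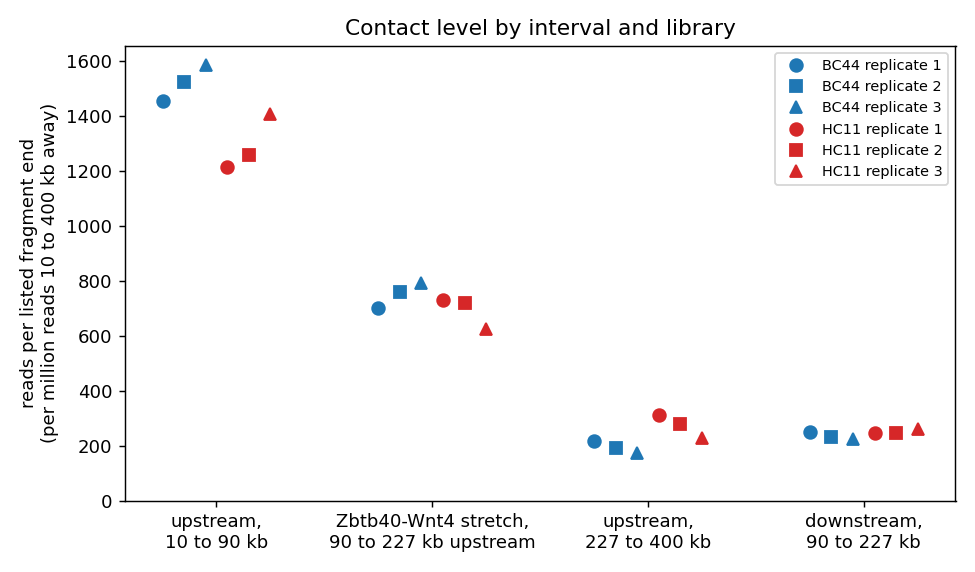
Reads per listed fragment end (y axis, RPM) in 4 intervals around the Wnt4 viewpoint (x axis). Each point is 1 library, blue for BC44 and red for HC11, with circles, squares and triangles for replicates 1, 2 and 3. The 6 libraries lie at 624 to 791 RPM in the stretch and at 226 to 260 in the interval at the same distances downstream.

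Levels just inside and just outside the limits of the stretch were set side by side, with no test. The 10 ends just inside the Zbtb40 limit had a median over libraries of 148 RPM per end (89.7 to 222), and the 10 ends just outside it 211 (19.0 to 295). At the Wnt4 limit the 10 ends inside had a median of 858 RPM per end (361 to 1180) and the 10 ends outside 1078 (659 to 1607). The library ranges overlapped across both limits.

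Split at its midpoint, 136673412, the stretch had 186 ends on the Wnt4 side and 175 on the Zbtb40 side. The Wnt4 side took 55.1%, 56.4% and 62.05% of the stretch's reads in BC44 and 62.04%, 65.02% and 58.9% in HC11. The ranges overlapped, and the difference of 4.13 points had a two-sided exact permutation p of 0.3 (adjusted p 0.5) and was 2.74 points with replicates 2 and 3 alone. As a share of all reads 10 to 400 kb away, the Zbtb40 side held 11.3%, 11.96% and 10.8% in BC44 and 10.01%, 9.09% and 9.26% in HC11. Here every BC44 library lay above every HC11 library, a description that was not among the tested comparisons. The neighbouring zones did not overlap either. From 10 kb upstream to the stretch BC44 was above (34.6 to 37.7% against 28.96 to 33.5%), and from the stretch to 400 kb HC11 was above (10.9 to 14.9% against 8.30 to 10.3%).

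Captured ends gave the breadth of contact. In BC44 278, 276 and 269 of the 361 ends had reads, and in HC11 277, 246 and 263 did. The shares were 76.0% ± 1.31 in BC44 and 72.6% ± 4.30 in HC11 (SD, n = 3), a difference of -3.42 points with a two-sided exact permutation p of 0.3 (adjusted p 0.5). The lowest value, 68.1%, came from HC11 replicate 2, the library with the fewest reads, and without it the difference was -1.20 points. With replicates 2 and 3 alone it was -4.99 points, and with at least 3 reads required for capture -6.93 points. With every library thinned to the same 93823 reads the difference was -2.12 points. Where no read was seen, the limit that a count of 0 allows (3 reads) was 0.000584% to 0.00661% of the reads 10 to 400 kb away, and the highest limit was that of HC11 replicate 2.

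Along the stretch, reads per window rose and fell rather than falling evenly. In 10 kb windows, 13 of which lay wholly inside, the mean over the 6 libraries ran from 4374 RPM at 210 to 220 kb upstream to 41329 RPM at 110 to 120 kb upstream, a 9.45-fold range. These windows also had the fewest and the most listed ends, 16 and 39. Levels were not divided by the number of ends, whose part in the range was not tested. By reads, the highest 3 windows were those at 110 to 120, 100 to 110 and 190 to 200 kb, the others with 30 and 32 listed ends. The order per listed end can differ, as the window at 140 to 150 kb had 16951 RPM over 18 ends. Between the near and far maxima this mean was lowest at 120 to 130 kb, with 9503 RPM. The low point lay elsewhere in some libraries. It was at 160 to 170 kb in BC44 replicate 2 (10706 RPM) and HC11 replicate 1 (7561 RPM), and at 130 to 140 kb in HC11 replicate 3 (8016 RPM).

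In the window at 110 to 120 kb upstream, which holds the GENCODE body and the RefSeq start of Gm13003, levels were 34191, 37705 and 53544 RPM in BC44 and 46307, 46277 and 29950 RPM in HC11. The lines overlapped, and both the highest and the lowest value came from a replicate 3. The next window, at 100 to 110 kb, contains no GENCODE M1 gene body and had 34695, 26687 and 43316 RPM in BC44 and 43609, 38876 and 38045 RPM in HC11. The window at 190 to 200 kb upstream contains no GENCODE M1 gene and had 29608, 31507 and 34259 RPM in BC44 and 22495, 24471 and 28468 RPM in HC11. In this window the lowest BC44 library was above the highest of HC11.

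The lines were compared in all 78 windows from 10 to 400 kb on both sides. By edgeR's quasi-likelihood test at an adjusted p under 0.05, 0 of the 13 windows of the stretch were called and 0 of all 78 (0% called). At an unadjusted p under 0.05 there was 1 window in the stretch, against 11 of 78 (14.1%) in all. DESeq2 also called 0 windows of the stretch and had 0 there at an unadjusted p under 0.05, against 1 called and 6 at an unadjusted p under 0.05 of all 78. The lowest adjusted p in the stretch was 0.258 (edgeR), at 190 to 200 kb, with a log2 fold change of -0.46 (SE 0.19, HC11 over BC44). The next lowest were the windows at 170 to 180 kb and 150 to 160 kb. At 170 to 180 kb levels were 25786, 26873 and 17381 RPM in BC44 and 22972, 15198 and 16883 RPM in HC11, with overlap and a log2 fold change of -0.47 (SE 0.24, edgeR adjusted p 0.469). At 150 to 160 kb, the window with 1700037C06Rik and Gm13001, they were 15374, 16592 and 15489 RPM in BC44 and 12577, 12621 and 14082 RPM in HC11, without overlap and with a log2 fold change of -0.40 (SE 0.24, edgeR adjusted p 0.531). The windows at 110 to 120 and 100 to 110 kb had log2 fold changes of -0.17 (SE 0.22) and 0.08 (SE 0.19).

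The log2 fold change was below 0 in 11 of the 13 windows, against 35 of 78 (44.9%) in all, with a median of -0.36 in the stretch and 0.08 over all windows. The count below 0 was 7 of 8 in the windows 10 to 90 kb upstream. With captured ends in place of reads 6 of the 13 lay below 0, with a median of 0.00094. Without the TMM scaling factors the medians were -0.25 and 0.20, so both moved up by a similar amount and that of the stretch stayed the lower. The SE of a single window ran from 0.19 to 0.42, so differences of the size of the median lay within about 2 SE. Lines did not overlap in 2 of 13 windows (15.4%), BC44 being above in both, at 190 to 200 and 150 to 160 kb, and over all 78 windows they did not overlap in 15.4%, with BC44 above in 8.97% and HC11 above in 6.41%. On the TMM scale the window at 90 to 100 kb was added to these, against 11.5% of all windows with BC44 above.

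**Figure D2:**
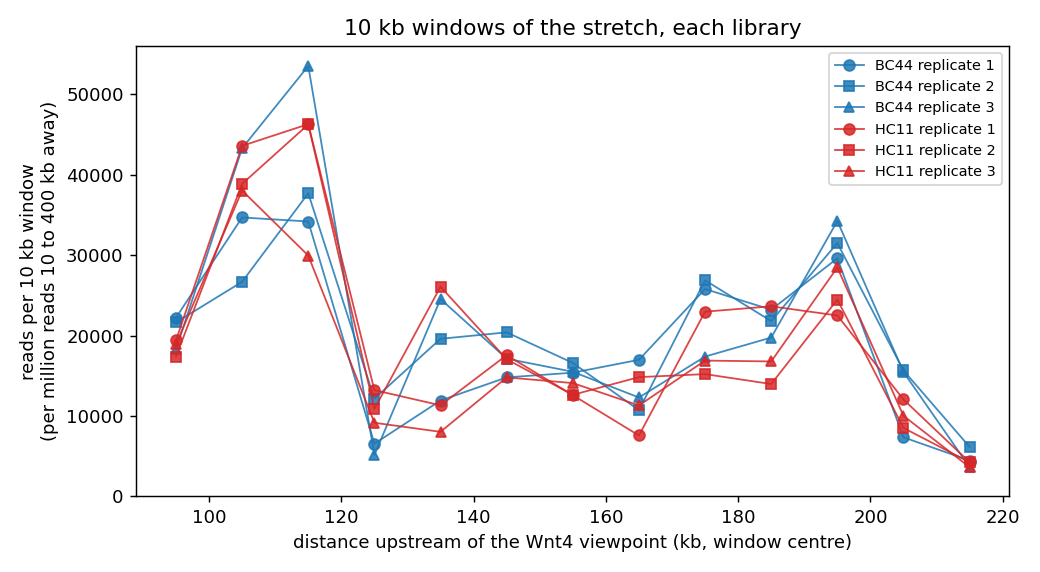
Reads in the 13 windows of 10 kb that lie wholly inside the stretch (y axis, RPM) against the distance of the window centre upstream of the Wnt4 viewpoint (x axis, kb). Each line is 1 library, blue for BC44 and red for HC11. All 6 libraries have their maximum at 100 to 120 kb and 5 of them a further peak at 190 to 200 kb (in HC11 replicate 1 it is at 180 to 190 kb), and all have at most 6131 RPM at 210 to 220 kb.

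The next question was where in the stretch the signal exceeded the background expected from distance. Each library was averaged over 21 neighbouring ends and divided by a background that can only decrease with distance, and an end was called in a line if its 3 libraries ranked high together (rank-product adjusted p under 0.1) and its median ratio passed a threshold set by the spread of all ratios, 1.44 in BC44 and 1.45 in HC11. Of 2084 tested ends at 15 to 400 kb, 8 (0.384%) were called in BC44 and 12 (0.576%) in HC11. In the stretch were 7 of the 8 and all 12. The ends called in both lines numbered 5, which is 71.4% of the BC44 calls and 41.7% of the HC11 calls in the stretch. Because a value is a mean over 21 ends, neighbouring calls share reads and are not separate findings.

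At the place 194 kb upstream the called ends were 136638541 and 136638621, in both lines, with no GENCODE M1 gene under the running window. At 136638621 BC44 libraries had ratios to background of 1.49, 1.37 and 1.82, and HC11 libraries had 1.29, 1.57 and 1.94, so replicate 3 was highest in each line. The adjusted rank-product p was 0.0368 in BC44 and 0.0594 in HC11. Over the whole running window of 22 ends, from 136635294 to 136640866, the level was 1006, 1030 and 1291 RPM per end in BC44 and 835, 890 and 1094 RPM per end in HC11. The rest of the stretch had 681 to 758 RPM per end in BC44 and 594 to 724 in HC11, and the place was above the rest in each of the 6 libraries, as ends chosen for high signal must tend to be.

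That place rested heavily on 1 end. The left end of the fragment printed first above, at 136636310, gave 18.5 to 47.2% of the place's reads in 5 libraries, and in HC11 replicate 1 the top end was 136640832 with 17.8%. The called ends themselves were not among the highest, with medians of 661 RPM at 136638541 and 982 RPM at 136638621. When the top end of every 10 kb window was left out, BC44 kept calls at 190 to 200 kb (3 ends) and HC11 had none there.

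At the place 110 kb upstream BC44 called 4 ends from 136718220 to 136722014 and HC11 called 10 ends from 136719710 to 136725537. The ends 136721609, 136722011 and 136722014 were called in both. At 136722014 the ratio to background was 1.57, 1.10 and 1.85 in BC44, where replicate 2 was little above background, and 1.57, 1.74 and 1.44 in HC11. The smallest adjusted rank-product p was 0.0271 in BC44 and 0.00193 in HC11. The other BC44 end, 136718220, had a median ratio of 1.447 in HC11 against a threshold of 1.454 there, just under it.

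The DNA under the running windows of this place, from 136715601 to 136729480, contained 48 listed ends, of which 36 had reads in all 6 libraries and 7 in none. It made up 13.3% of the listed ends and held 20.3%, 17.0% and 26.01% of the stretch's reads in BC44 and 23.5%, 24.3% and 25.1% in HC11. The lowest share was that of BC44 replicate 2 and the highest that of BC44 replicate 3. The top end of a library gave 8.80 to 13.2% of its reads there. Without the top end of every 10 kb window, the calls at 100 to 120 kb numbered 0 in BC44 (from 4) and 3 in HC11 (from 10). The signal per listed end was 971 to 1547 RPM in BC44 and 1177 to 1313 in HC11, and 539 to 727 RPM over the rest of the stretch in all libraries. Here too, ends chosen for high signal must tend to lie above the rest.

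The remaining call of the stretch was the single BC44 end 136659285, 173 kb upstream and between GENCODE M1 genes. Its ratios were 1.61, 1.52 and 1.01 in BC44, so replicate 3 was at background, and 1.39, 0.93 and 1.24 in HC11. The adjusted rank-product p was 0.0805 in BC44 and 0.793 in HC11. A difference between the lines at single called ends was not tested.

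Of the 14 ends called in either line, 3 had no read in any library, namely 136718220, 136720974 and 136720977. These ends were called through their neighbours, so a call marks a run of ends and not an end. The last pair lies inside the printed 300 bases at the Gm13003 start. The DpnII fragment from 136720974 to 136721609, which contains the GRHL match, was therefore seen only through its other end, 136721609, with a median of 108 RPM (18.6 to 336). The pair's distances to the nearest NlaIII site were 353 and 513 bases.

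More widely, 59 of the 361 ends (16.3%) had a ratio above 1 in all 6 libraries, against 7.15% of the 2084 tested ends. In none of the libraries was it above 1 at 62 ends, a count whose share over all tested ends was not computed. Taken over the ends of the stretch, the median of the ratios was 1.00 in BC44 and 0.951 in HC11. Over all tested ends it was 0.968 and 0.987, so the stretch was above this level in BC44 and below it in HC11. The background itself is fitted to the same reads, and neighbouring ends share them, so these are descriptions.

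**Figure D3:**
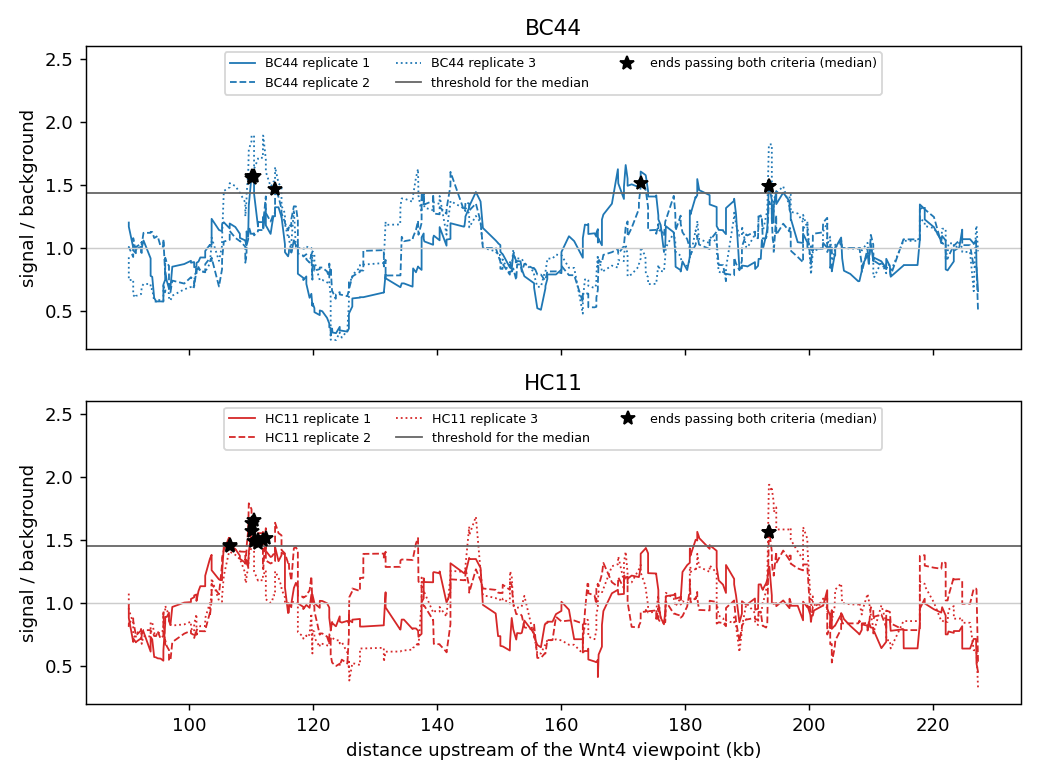
Ratio of the running mean over 21 ends to the distance background (y axis) at each listed end of the stretch against its distance upstream of the Wnt4 viewpoint (x axis, kb), BC44 above and HC11 below. Lines are libraries, the dark horizontal line is the threshold for the median of the 3 libraries (1.44 and 1.45), and stars mark the median at the called ends. Stars occur near 110 and 194 kb in both panels and near 173 kb in BC44 alone.

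The calls depended on single libraries and settings. Without BC44 replicate 1, 2 or 3 the BC44 calls in the stretch numbered 0, 3 and 0, and without HC11 replicate 1, 2 or 3 the HC11 calls numbered 4, 2 and 12. The HC11 calls at 100 to 120 kb were made in 3 of 3 such fits, and the calls at 190 to 200 kb in 0 of 3 in either line. With the background fitted over 1 Mb on each side, no end of the stretch was called in either line.

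Single ends showed how coarse the measurement is. Of the 361 ends, 193 (53.5%) had reads in all 6 libraries, 114 (31.6%) in 1 to 5 and 54 (15.0%) in none. As much as 50% of a library's reads in the stretch came from 32 to 47 ends. The 10 highest ends of a library held 19.3%, 17.9% and 22.0% of its reads in BC44 and 15.7%, 24.0% and 21.8% in HC11, a difference of 0.792 points with a two-sided exact permutation p of 0.9 (adjusted p 0.9). With replicates 2 and 3 alone it was 3.01 points. Its sign turned without BC44 replicate 2 (-0.137 points) and without HC11 replicate 2 (-0.967 points).

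By median RPM over the 6 libraries the highest end was 136636310, 196 kb upstream, with 5130, 4199 and 8482 RPM in BC44 and 1504, 9251 and 9577 RPM in HC11. Both the lowest and the highest of these were HC11 libraries. The second was 136717180, 115 kb upstream, with 3474, 6173 and 4314 RPM in BC44 and 4999, 7599 and 4276 RPM in HC11, the narrowest relative range of the first 4. The third was 136723891, 108 kb upstream, with 3071, 688 and 6681 RPM in BC44 and 3231, 5925 and 5464 RPM in HC11, where BC44 replicate 2 was far below the others. The lines overlapped at all 3.

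The other 7 of the 10 highest ends had medians from 2962 to 3710 RPM. These were 136690577, 136719710, 136684720, 136722456, 136715601, 136722554 and 136648167. The end 136684720, 147 kb upstream, ranged from 127 RPM in BC44 replicate 1 to 4009 in HC11 replicate 2, and 136722554 from 297 in BC44 replicate 1 to 8646 in BC44 replicate 3. The steadiest was 136722456, 110 kb upstream, with 2628 to 3166 RPM in BC44 and 3229 to 5256 in HC11, without overlap and with HC11 above. Of the 10 highest ends, 6 lay in the nearer place, 1 in the farther place and 3 in neither. The places were called from running means that include these same ends. High ends must therefore tend to lie in them, and the counts are no separate evidence for the places.

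**Figure D4:**
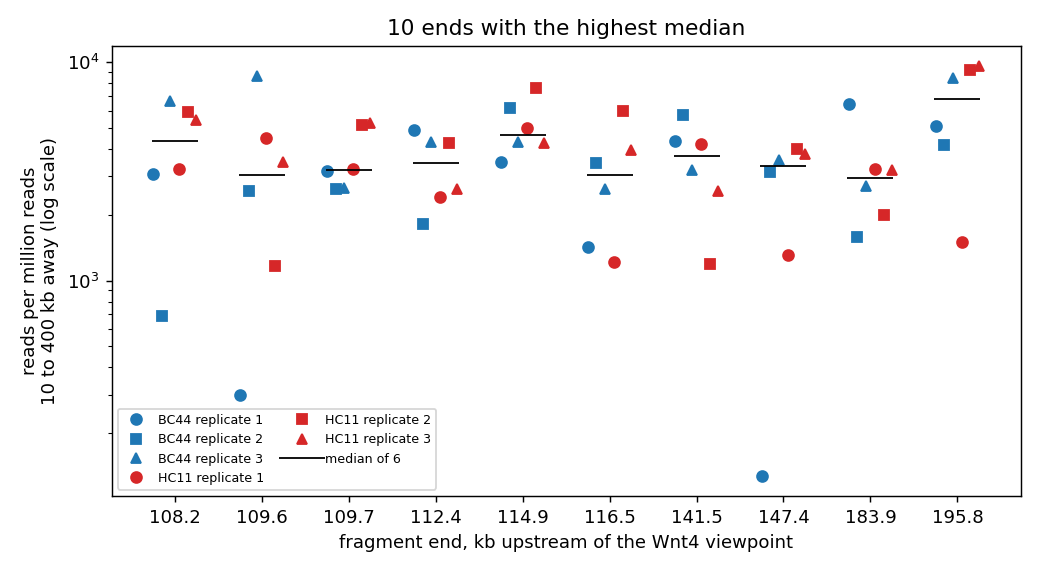
Reads (y axis, RPM, log scale) at the 10 ends of the stretch with the highest median over the 6 libraries, ordered by their distance upstream of the Wnt4 viewpoint (x axis, kb, not to scale). Each symbol is 1 library and the bar is the median of the 6. Libraries differ at single ends by up to more than an order of magnitude, as at 147 kb, where BC44 replicate 1 has 127 RPM and HC11 replicate 2 has 4009.

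Of the 361 ends, 255 had at least 10 reads in at least 3 libraries and could be compared. Among these the lines did not overlap at 23 of 255, with HC11 above at 8 and BC44 above at 15. Over all such ends 10 to 400 kb away this held for 97 of 1148 (8.45%), with HC11 above at 4.01% and BC44 above at 4.44%, so the stretch's share of 9.02% is near the background and no result about its ends. On average the ranking of ends agreed about as well between the lines as within them, but replicate 1 stood apart. The Spearman correlation of reads across the 361 ends, which are not independent replicates, averaged 0.656 over the 6 pairs of libraries within a line. It averaged 0.721 over the 3 pairs of lines with the same replicate number and 0.653 over the 6 pairs with different numbers. The BC44 and HC11 replicate 1 libraries correlated at 0.701. Either of them with a replicate 2 or 3 library of any line gave 0.582 to 0.653. Among the replicate 2 and 3 libraries of both lines the values were 0.693 to 0.777.

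The ends also differed by features of the DNA that the position rule did not use. A read requires that the DpnII end and the next NlaIII site fall within a length that PCR and sequencing can handle. All 361 ends had an NlaIII site in their fragment, at a median of 127 bases. Of the 27 ends with at most 40 bases to that site 25.9% had reads in all 6 libraries. The share was 53.8% of 117 ends at 40 to 100 bases, 62.2% of 119 at 100 to 200, 57.5% of 80 at 200 to 400 and 17.6% of 17 at 400 to 800. The level was highest at 40 to 100 bases, with a median of 648 RPM over ends, against 6.37 RPM in the shortest class and 0 RPM at 400 to 800 bases.

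The 10 highest ends all lay 49 to 168 bases from an NlaIII site. Across the 361 ends the Spearman correlation of the median RPM with this length was -0.13 and with the GC content of the same bases -0.03. The GC content was 50.8% at the median end captured in all 6 libraries and 49.8% at the median end captured in none. Both ends of a GATC site sit in the same place, and over 108 such pairs their median RPM correlated at 0.35 (Spearman), while over 148 pairs at opposite ends of a fragment it was 0.12. These are descriptions over ends that share libraries and neighbourhoods.

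**Figure D5:**
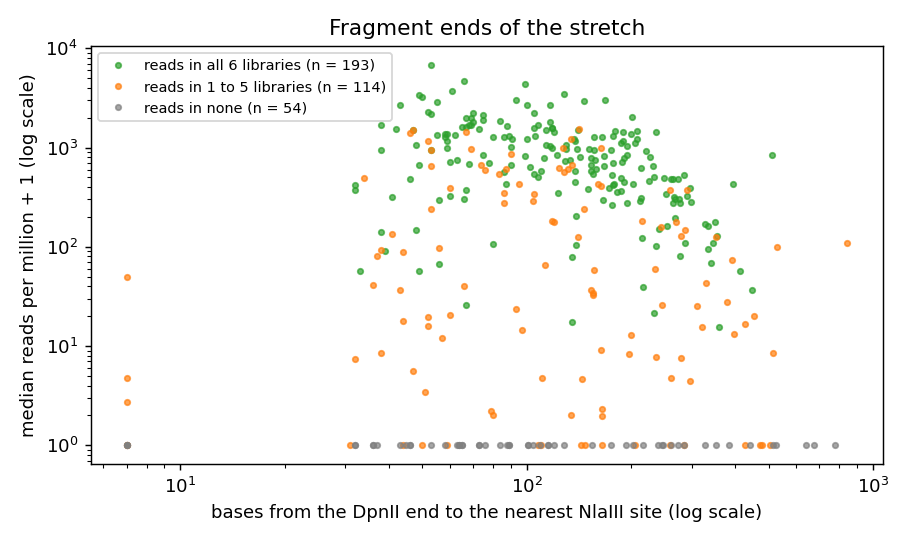
Median reads over the 6 libraries plus 1 (y axis, RPM, log scale) against the number of bases from the DpnII end to the nearest NlaIII site (x axis, log scale) for the 361 ends of the stretch. Green points are the 193 ends with reads in all 6 libraries, orange the 114 with reads in 1 to 5 and grey the 54 with reads in none. Ends captured in all libraries span 32 to 510 bases.

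The genes of the stretch are all noncoding. GENCODE M1 places 1700037C06Rik at 136672624 to 136673497 and Gm13001 at 136673058 to 136674058, both processed transcripts on the minus strand that overlap each other, and the lincRNA Gm13003 at 136714997 to 136715786 on the minus strand. It also places AL671011.2 and AL671011.1, predicted miRNA loci of 76 bases each, at 136739902 to 136739977 and 136739980 to 136740055 on the plus strand, and neither contained a listed end. The later RefSeq annotation (GRCm38.p6) names 6 lncRNA genes and 1 pseudogene between Zbtb40 and Wnt4, among them Gm13001 and Gm13003. Its gene bodies were not placed in mm9, so statements on gene bodies here hold for GENCODE M1 alone.

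In GENCODE M1 gene bodies lay 5 listed ends. They held 1.30%, 1.98% and 1.31% of the stretch's reads in BC44 and 1.12%, 2.80% and 2.67% in HC11. The means were 1.53% ± 0.390 and 2.19% ± 0.933 (SD, n = 3), and the difference of 0.662 points had a two-sided exact permutation p of 0.4 (adjusted p 0.5) and was 1.08 points with replicates 2 and 3 alone. Per listed end, the log2 ratio of gene bodies to the rest of the stretch was 0.34 ± 0.58 (SD, n = 6), above 0 in 3 of 6 libraries (two-sided exact sign-flip permutation p = 0.25, adjusted p 0.25). With captured ends in place of reads it was -0.03, without the top end of each 10 kb window 0.69 (above 0 in 5 of 6 libraries), with replicates 2 and 3 alone 0.61, and with any 1 library left out 0.20 to 0.47.

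In Gm13003 a single end carried nearly all reads. The end 136715601, in the gene's exon, had 1423, 3452 and 2633 RPM in BC44 and 1214, 6013 and 3961 RPM in HC11, with replicate 1 lowest in each line. Its partner across the same DpnII site, 136715604, had 0 to 12.5 RPM, and 136715190 had no read in any library. In the pair of overlapping genes, the shared end 136673497 had 1576, 1836 and 795 RPM in BC44 and 1404, 1013 and 1787 RPM in HC11, and 136672942, in 1700037C06Rik alone, had 139 to 331 RPM. The lines overlapped at each of these ends.

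Finally, the sequence of the stretch was searched on both strands for 4 motifs and set against 1089 intervals of chromosome 4 of the same length. The GRHL motif AACCNGTT occurred 13 times (median of the intervals 10), and 24.5% of intervals had as many or more. The progesterone receptor element, a palindrome with 3 free bases in its middle, occurred 2 times (median 2), and 67.0% of intervals had as many. The motif TTCNNNGAA of STAT5, which acts downstream of prolactin in mammary cells, occurred 45 times (median 55), and 70.2% of intervals had as many. The core motif of CTCF, a factor that anchors chromatin loops, occurred 3 times (median 0), and 8.08% of intervals had as many.

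The GRHL matches in the contact places, and all matches to the progesterone receptor element and the CTCF core, are printed here with 8 bases on each side, on the plus strand of mm9 with the match in capitals. The GRHL matches in the places are 2 of the 13 in the stretch, and the other GRHL matches lie outside both places and are not printed. Whether the places hold more GRHL matches than their length alone would give was not tested. STAT5 matches are given only by their count. The first GRHL match lies in the farther place, 24 bases from a listed end with a median of 431 RPM, and the second is the one in the Gm13003 promoter, read on the other strand.
GRHL motif, chr4:136639727-136639734: cgtttccgAACCTGTTaaccagcc
GRHL motif, chr4:136721121-136721128: tgtggtccAACCAGTTacccgatg
progesterone receptor element, chr4:136653715-136653727: tctagctgGAACAGCCTGTACcgcaagtc
progesterone receptor element, chr4:136736525-136736537: agccaaatGGACACTGTGTCCcagggatg
CTCF core, chr4:136628700-136628711: tcaagggcGCCACCTGGTGGcttgccag
CTCF core, chr4:136646046-136646057: gctgcttgGCCACCTACTGGgcatcatc
CTCF core, chr4:136708461-136708472: gatccagcGCCCTCTGCTGGcctctatg
The progesterone receptor matches lay 178 and 95.6 kb upstream and the CTCF matches 203, 186 and 124 kb upstream, none of them in either contact place. With only 2 and 3 such matches in the stretch, their absence from the places was not tested. The up to 300 bases of each of the 10 fragments behind the ends called in both lines and the 5 highest ends held no match to any of the 4 motifs. The rest of longer fragments was left out of this count. It thus misses the GRHL match at 136721121, in the 636-base fragment of the called end 136721609. Of windows of 300 bases along chromosome 4, 2.16% held the GRHL motif, 0.492% the progesterone receptor element, 10.9% the STAT5 motif and 0.153% the CTCF core.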

How the data were processed

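The authors deposited whole-number read counts per DpnII fragment end of chromosome 4 for each library. Per the series' design text, reads were mapped to mm9 with the de Wit laboratory's 4C mapping pipeline at default settings, and peakC was used on triplicates. Versions are not given in the sources used here. Of each read pair, R1 alone entered, per the labels' protocols. All 369081 listed positions were checked to be the first or last base of a GATC in mm9.

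The deposited counts ranged from 96690 to 1755373 per library. RPM, the 5 shares and the 2 ratios within libraries were computed in Python 3.11.15 (SciPy 1.17.1) and tested with exact permutations. Windows of 10 kb with at least 10 reads in at least 3 libraries were tested with edgeR 4.0.16 (TMM, cell line as the only term), with DESeq2 1.42.0 as an alternative. Contacts were called by a procedure rewritten after peakC, with 21 ends, 400 kb on each side and an isotonic background. The criteria were a rank product of signal minus background with adjusted p under 0.1, and a ratio more than 1 interquartile range above the upper quartile. It carries a pseudocount, the 5th percentile of scaled counts at captured ends averaged over libraries. Scripts were tested on simulated data.

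Libraries were grouped by line and number in their titles. Same-numbered libraries deviated together (correlations 0.143, 0.311 and 0.362 over windows). Pairing by number was used only in an alternative, the replicate block, and the main tests treated the libraries as unpaired. Other pairs had -0.320 to 0.00623.

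All genes of the stretch are named, with the 3 windows of lowest p and of highest mean, the called ends, and the 10 ends of highest median; fragments are those of ends called in both lines and of the 5 highest ends, and those printed were picked from these. Single ends in genes, at the limits and at motifs were named after their values were seen. The members and lists were chosen with earlier results of these data known.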

Additional observations from a re-analysis of the deposited data

How the results depend on the processing

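Of 177 recomputed values, among the main comparisons 92 were labelled the same, 16 counts moved by over 1.5 times and 4 changed sign. Among named windows 58 stayed and 7 changed sign. Differences in shares between the lines were labelled by sign alone. Ratios within libraries were labelled by sign and by an adjusted p under 0.05, and counts by a change of at most 1.5 times. With 3 libraries against 3 no p under 0.1 is possible, so these labels do not measure stability at a threshold for the shares. The causes of the changes were not tested. With captured ends in place of reads the difference in the Wnt4 side's share became -0.143 points, the ratio of gene bodies to the rest -0.0304, and the windows at 190 to 200, 170 to 180 and 110 to 120 kb log2 fold changes of 0.0163, 0.0184 and 0.0263. The window at 110 to 120 kb turned to 0.08 without BC44 replicate 3 and 0.04 without HC11 replicate 3 (range -0.33 to 0.08 when 1 library was left out), and that at 100 to 110 kb to -0.10 without BC44 replicate 2 (range -0.10 to 0.30) and -0.0088 with replicates 2 and 3 only. The top 10 ends' difference ranged from -0.967 to 3.22 points when 1 library was left out, the stretch's share from -3.02 to -0.907, the Wnt4 side's from 2.61 to 6.22, the gene bodies' from 0.360 to 1.20, captured ends' from -5.49 to -1.20, and the ratio to the downstream interval from 1.52 to 1.62.

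Calls of contact ends in the stretch, 7 in BC44 and 12 in HC11, became 1 and 5 with a running window of 11 ends, 4 and 20 with 31 ends, 0 and 2 with 1.5 interquartile ranges, 0 and 0 with 1 Mb on each side, and 4 and 3 without the top end of each 10 kb window; the background from unsmoothed counts gave 5 in HC11. Leaving out 1 library gave 0 to 3 and 2 to 12. Unsmoothed counts, replicates 2 and 3 only, and calling without top ends were chosen after seeing the data.

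With the replicate block, 0 windows of the stretch passed (smallest edgeR adjusted p 0.0827) and 2 of all 78 (smallest 0.0146), the stretch's share differed by -2.12 points (exact p 0.5), and the ratio to the downstream interval had an adjusted exact p of 0.5; with 3 pairs the smallest p is 0.25. The pairing changed no call in the stretch. Over the alternatives the smallest edgeR adjusted p in the stretch ranged from 0.0827 to 0.997. Depth limits HC11 replicate 2 most, with 11794 reads in the stretch.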
